A study of Drosophila melanogaster with 8 samples.

Results

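The 4 samples described here are wing imaginal discs of Drosophila melanogaster larvae in which the endogenous Zelda protein, a transcription factor, was tagged with GFP, 2 libraries from discs taken 2 days after damage and 2 from undamaged discs under normal development. They are 4 of the 8 samples of the series. The other 4 are discs of untagged wild type (w1118) larvae, 2 damaged and 2 undamaged, treated with the same anti-GFP antibody. The assay was CUT&RUN, where a nuclease held at the antibody cuts out the DNA nearby for sequencing, and 1 peak list per library was deposited. How the discs were damaged, the age and sex of the larvae, the number pooled and whether replicates came from separate larvae are not given in the sources used here, so the spread between replicates may be technical. The wing disc is a mixed tissue, and a peak borne by more cells cannot be told apart from a stronger one in the same cells.

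Overlapping peaks of the 8 lists on the 6 chromosome arms, at a minimum of 1 bp, were merged into 9086 regions. Regions holding a peak of any wild type list were removed, which left 3120 regions with a peak in at least 1 Zelda-GFP list. Of these, 965 regions were called in both damaged and no undamaged list (30.9%), 56 in both undamaged and no damaged list (1.79%), and 62 in all 4 lists (1.99%). These 3 classes, 1083 regions in all, are defined by the calls, so the calls and folds that put a region in a class are given as a description and were not tested.

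Zelda is a zinc-finger pioneer factor, a protein that can engage closed chromatin and make it accessible to other factors. It is best known for switching on the zygotic genome in the early fly embryo, and it is also expressed in later tissues. A wing disc that loses tissue regrows it and then has to restore the pattern of compartments, veins and margin, which relies on the Notch, Wingless, Dpp, Hedgehog and EGFR signals and on selector transcription factors. The comparison of damaged with undamaged discs bears on where tagged Zelda is bound during that phase.

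The damaged lists held 3624 and 3908 peaks on the arms and the undamaged lists 2908 and 1698. The mean was 3766 ± 201 peaks in damaged and 2303 ± 856 in undamaged discs (SD, n = 2 each), a difference of 1463 peaks with every damaged list longer than every undamaged one. The exact two-sided permutation test over the libraries gave p = 0.33, which is the smallest value that 2 against 2 libraries can give. Without undamaged replicate 2 the difference was 858 peaks. In wild type discs it was 444.5 peaks, and the groups overlapped, with 2282 and 3706 peaks in damaged and 1744 and 3355 in undamaged lists. Peaks off the arms made up 20.5% and 18.5% of the damaged and 31.5% and 36.2% of the undamaged Zelda-GFP lists. With these peaks the Zelda-GFP lists held 4559 and 4793 peaks in damaged and 4246 and 2663 in undamaged discs. The background coverage, used in place of a read total, was 38.0 fragments per base in both damaged libraries and 51.8 and 35.3 in undamaged replicates 1 and 2, so undamaged replicate 1 was the deepest of the 4. Undamaged replicate 2 stood apart from the other 3 by its short list, with only 233 regions free of a wild type peak, against 885 in undamaged replicate 1 and 1686 and 1892 in the damaged lists.

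**Figure D1:**
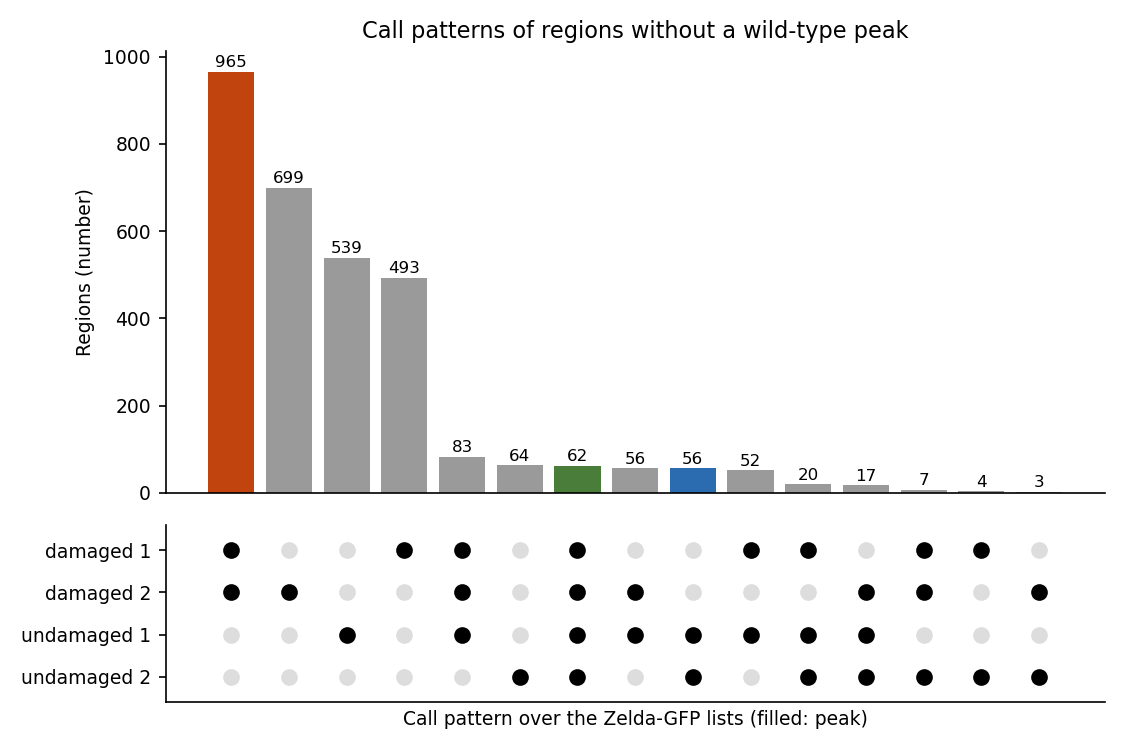
Number of regions without a wild type peak (upper axis, bars) for each combination of calls in the 4 Zelda-GFP lists (lower panel, filled dots mark a peak). The largest group is the 965 regions of both damaged lists, followed by 699, 539 and 493 regions called in 1 list alone, while 62 regions were in all 4 lists and 56 in both undamaged lists.

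Most regions seen in both damaged lists were absent from both undamaged lists. Of the 1117 regions without a wild type peak that were called in both damaged lists, 83 had a peak in undamaged replicate 1 alone, 7 in undamaged replicate 2 alone and 62 in both. The damaged replicates shared 66.3% of the regions of replicate 1 and 59.0% of those of replicate 2. The undamaged replicates shared 17.5% of the regions of replicate 1 and 66.5% of those of replicate 2, which had far fewer. Requiring only damaged replicate 2 gave 1664 regions, and requiring only damaged replicate 1 gave 1458. With undamaged replicate 2 left out, the damaged-only class held 972 regions, close to the 965, whereas the undamaged-only class grew to 595 regions and the class in all lists to 145. With every list shortened to 1698 peaks by the caller's p-value, 616 regions were damaged-only, 143 undamaged-only and 15 in all 4 lists, so the damaged-only class was the largest there too.

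Removing the wild type regions took away 277 of the 1242 regions called in both damaged and no undamaged list, or 22.3%. Of these 277 regions, 202 had a peak in wild type damaged replicate 2 and 56 in wild type damaged replicate 1, against 100 in wild type undamaged replicate 2 and 25 in replicate 1. The mirror class in untagged discs, called in both damaged and neither undamaged wild type list and in no Zelda-GFP list, held 83 regions, and its reverse 52.

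The damaged-only regions were the most enriched of the 3 classes. The fold enrichment of a peak is the authors' own value, the pileup at the summit over the caller's local expected coverage, and it is set per list with no common scale shown between lists. The median fold over the 965 regions was 2.43 in damaged replicate 1 and 2.56 in replicate 2, with median summit pileups of 99 and 107 fragments. In 191 of the regions (19.8%) both damaged folds were at least 3, in 52 at least 4 and in 17 at least 5. No region of the undamaged-only class or of the class in all 4 lists reached 3 in every list that called it. Among peaks with expected coverage within 10% of the background, the lowest fold was 1.43 in undamaged replicate 1 and 1.56 in replicate 2. At that level no region of lower enrichment was listed there. Peaks over higher expected coverage could have lower folds, such as 1.53 in undamaged replicate 2 in the class in all 4 lists. The damaged-only regions reached down to 1.52 and 1.53 in the 2 damaged lists.

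Within a class, which requires overlapping calls in its lists, the distance between summits was measured. Summits of the 2 replicates lay a median of 54 bp apart in the damaged-only class and within 100 bp of each other in 64.4% of regions. In the undamaged-only class the median gap was 174.5 bp and 37.5% of regions were within 100 bp. A summit of either undamaged list lay within 1 kb of the damaged-only summit at 11 of 965 regions (1.14%). A damaged summit lay within 1 kb of the undamaged-only summit at 7 of 56 regions (12.5%). Folds of the 2 damaged lists had a Spearman correlation of 0.622 across the 965 regions, which share their libraries and are not replicates.

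**Figure D2:**
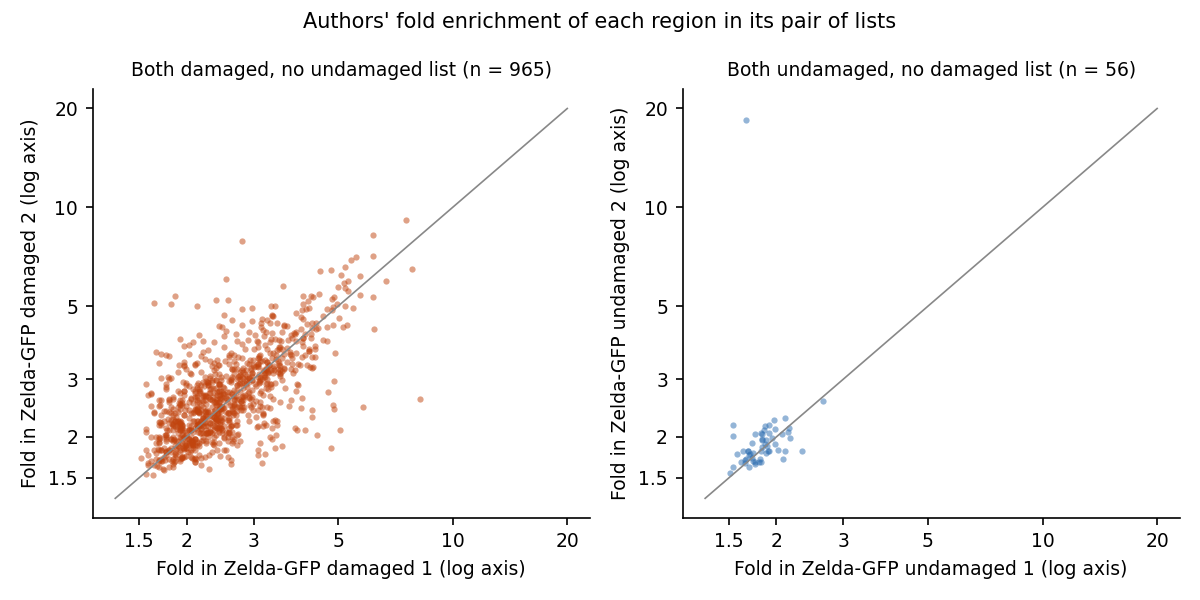
Authors' fold of each region in replicate 1 (horizontal, log axis) and replicate 2 (vertical, log axis), for the 965 damaged-only regions in the damaged lists (left) and the 56 undamaged-only regions in the undamaged lists (right). The diagonal marks equal folds. Damaged-only regions extend to 8.23 and 9.17, and undamaged-only regions stay below 2.66 apart from 1 point at 18.5 in undamaged replicate 2.

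The 12 damaged-only regions with the highest lower fold of the 2 damaged lists reached folds of 5.31 to 9.17. By the definition of the class, none had a peak in any undamaged or wild type list. The highest was at X 17829643 to 17830846, overlapping CG6398, with summit pileups of 574 and 702 fragments in the 2 damaged libraries, which is 15.1 and 18.5 times the background coverage. The second, at 3L 748815 to 749200, overlapped hng3 and lay within 2 kb of emc, whose protein sequesters proneural factors. Its pileups were 320 and 261 fragments, and undamaged replicate 1 had a separate summit 614 bp away. The region at 2R 17261892 to 17262856 in mbl, a regulator of splicing, had 283 and 308 fragments. The region at 2R 21047901 to 21048657 stood 997 bp from shg, the gene of E-cadherin, with 254 and 382 fragments.

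The remaining 8 of the 12 included several regulators of wing growth and pattern. The region in N, at X 3162169 to 3162990, had 259 and 273 fragments. In sbb, the gene of the transcriptional corepressor Brakeless, the region at 2R 18335095 to 18335548 had folds of 5.72 and 6.19. mew, which encodes an integrin alpha subunit, had folds of 5.59 and 7.07 at X 13233616 to 13234463. A region across Zasp52, the gene of an adaptor at integrin attachments, and tun at 2R 15816778 to 15818580 had folds of 5.70 and 5.41. In Snoo, a cofactor of TGF-beta signalling, the region at 2L 7909307 to 7910259 had folds of 5.41 and 6.94. The region at 2L 429709 to 430983 was outside any gene, 244 bp from ex, which encodes an upstream Hippo pathway protein. It had folds of 5.32 and 5.57 and pileups of 480 and 492 fragments. A region at 3L 1746112 to 1747182 overlapped CG13921 with folds of 6.17 and 5.32. ph-p, which encodes a subunit of the Polycomb complex PRC1, had folds of 5.31 and 5.96 at X 2136476 to 2138077.

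The position of a region relative to genes was not used to define the classes. Of the 965 damaged-only regions, 355 (36.8%) had their mean summit within 500 bp of an end of a protein-coding gene, 388 (40.2%) lay further inside a gene and 222 (23.0%) further outside. None of the 56 undamaged-only regions lay within 500 bp of a gene end, 33 were further inside a gene and 23 further outside. In the class in all 4 lists the numbers were 6, 23 and 33. The untagged discs showed the same contrast, with 30 of the 83 wild type damaged-only regions (36.1%) and 0 of the 52 wild type undamaged-only regions near a gene end. Over all 9086 regions the share near a gene end was 31.4%. Among regions without a wild type peak, it was 48.1% and 43.1% for those called in damaged replicate 1 or 2 alone. It was 44.6% for those called in both damaged lists and undamaged replicate 1. Shares this high were thus not particular to the damaged-only class. For regions called in undamaged replicate 1 or 2 alone it was 20.2% and 1.56%, and the undamaged-only class requires a call in both. The nearest protein-coding gene was over 5 kb away for 9.53% of damaged-only, 35.7% of undamaged-only and 37.1% of regions in all 4 lists.

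Compared by library, peaks in regions without a wild type peak lay near a gene end in 37.0% and 37.5% of cases in the damaged lists and in 20.9% and 3.69% in the undamaged lists. The mean was 37.3 ± 0.294% in damaged and 12.3 ± 12.2% in undamaged discs (SD, n = 2 each), a difference of 24.96 percentage points with no overlap between the groups. Without undamaged replicate 2 it was 16.4 points. The exact two-sided permutation p was 0.33, again the smallest possible. Over all peaks on the arms the share was 27.0% and 28.6% in damaged and 12.3% and 4.59% in undamaged Zelda-GFP lists. In wild type it was 8.24% and 39.2% in damaged and 4.93% and 12.7% in undamaged lists, so wild type damaged replicate 2 had the highest share of all 8 lists. Its part in the difference was not tested.

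The median fold of these peaks was 2.18 and 2.21 in the damaged lists and 1.67 and 1.87 in the undamaged lists. The groups did not overlap and the mean difference was 0.428, with the same exact permutation p of 0.33. The difference was 0.172 over all arm peaks, wild type regions included, and 0.865 with every list shortened to 1698 peaks. Peaks with a fold of at least 3 numbered 325 and 382 in the damaged lists and 2 and 8 in the undamaged lists.

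The strongest damaged-only regions were mostly away from gene ends. Of the 191 regions with both damaged folds at least 3, 22.5% lay near a gene end and 49.7% further inside a gene. Of the 298 regions whose lower fold was under 2, 43.3% lay near a gene end and 34.2% further inside a gene. The stronger regions were also wider, with a median of 1035 bp against 619 bp, and their summits in the 2 damaged lists lay closer together, 28 bp against 100 bp apart. The X chromosome held 18.9% of damaged-only regions and 24.6% of those with both folds at least 3, where it held 11.99% of all 9086 regions. The 9086 regions include those with a wild type peak. The X chromosome held 14.3% of undamaged-only regions and 19.4% of regions in all 4 lists. Of regions without a wild type peak called in damaged replicate 1 or 2 alone, it held 15.2% and 20.7%. It held 4.64% of the 539 regions called in undamaged replicate 1 alone and 3.61% of the 83 regions called in both damaged lists and undamaged replicate 1.

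Genes were then assigned to a region when their body or the 2 kb on either side overlapped it. Of 13922 protein-coding genes on the arms, 1142 (8.2%) had a damaged-only region, of which 677 (4.86%) had one in the gene body, 33 (0.237%) an undamaged-only region and 59 (0.424%) a region in all 4 lists. Wild type damaged-only regions were assigned to 139 genes (0.998%). Genes that overlap share regions, and 401 of the 965 damaged-only regions were assigned to at least 2 genes while 144 had none. Longer genes offer more room for a region. The share with a damaged-only region was 4.92% for genes under 5 kb, 15.1% for genes of 5 to 20 kb and 25.1% for genes of at least 20 kb. Calling whole genes in place of regions, 7.98% of genes had a peak without wild type overlap in both damaged and neither undamaged list, while 18 genes had the reverse pattern and 69 had peaks in all 4 lists.

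Damaged-only regions were then counted in 16 lists of signalling, selector, chromatin and growth genes of the wing disc. Over these lists, 79 of 193 genes (40.9%) had a damaged-only region, beside the 8.2% of all genes. Among the 77 of these genes that span at least 20 kb, 44 did, beside the 25.1% of all such genes. Of the 193 genes, 1 had an undamaged-only region, beside 0.237% of all genes, 1 a region in all 4 lists, beside 0.424%, and 4 a wild type damaged-only region, beside 0.998%. A region with a wild type peak, which the classes leave out, lay at 109 of the 193. A gene said below to have no damaged-only region can thus still have peaks. Regions with a wild type peak also lay at genes with damaged-only regions, such as psq (9), Ptp61F (7), Eip74EF (6) and tara (4). At kuz, dlp, Diap1, zfh2 and emc, an undamaged Zelda-GFP list also had a peak without wild type overlap, in a separate region. The lists were chosen with earlier results of these data known, so the counts are a description.

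**Figure D3:**
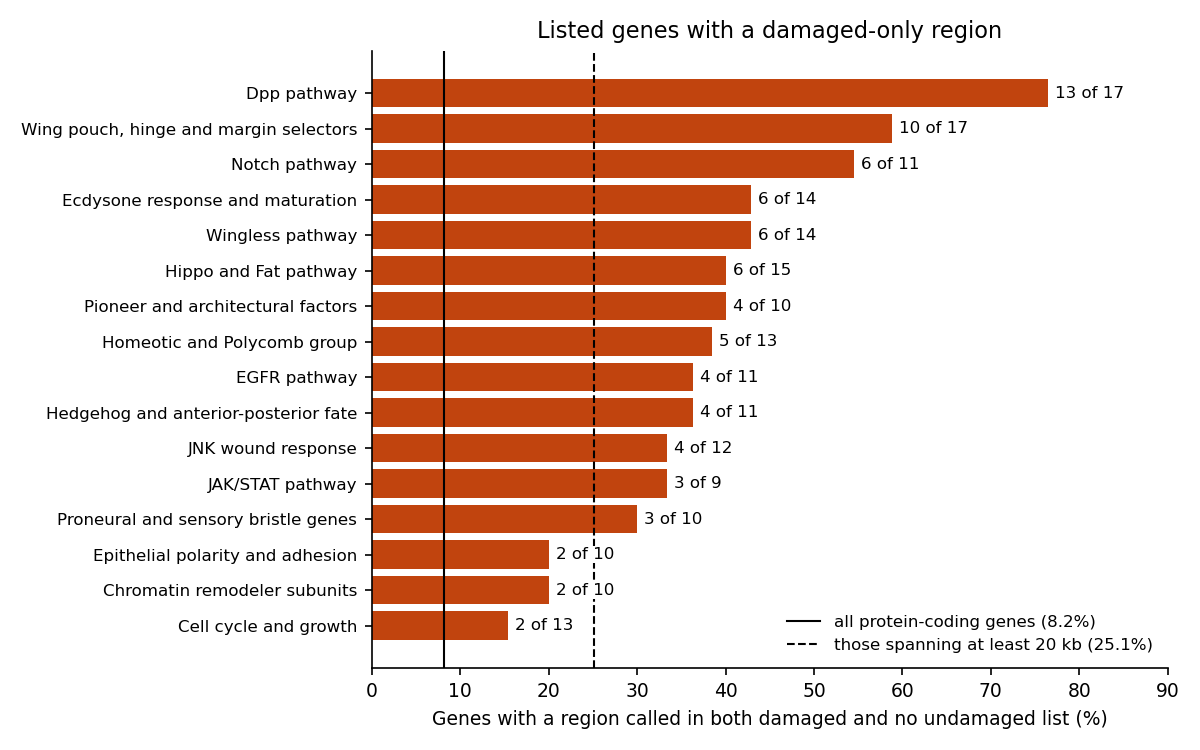
Share of the genes of each list that had a damaged-only region in the body or within 2 kb (horizontal axis, percent), with the number of genes beside each bar. The solid line is the share of all protein-coding genes, 8.2%, and the dashed line that of genes spanning at least 20 kb, 25.1%. The Dpp list stands highest with 13 of 17 genes and the cell cycle list lowest with 2 of 13.

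The Dpp pathway had the largest share, with 13 of 17 genes, and all 7 of its genes of at least 20 kb. Dpp is the fly BMP ligand that forms a gradient across the disc. At the ligand gene dpp, the region at 2L 2450889 to 2451622 had folds of 3.76 and 2.60 in the damaged lists. At tkv, which encodes its type I receptor, 3 regions were damaged-only, and the largest at 2L 5252725 to 5254784 had 475 and 439 fragments, with folds of 4.98 and 5.07. The glypican genes dally and dlp, whose products shape the spread of the ligand, had 2 regions and 1 region. The dally region at 3L 8824786 to 8825942, just outside the gene, had folds of 4.79 and 6.45.

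Among the regulators and targets of Dpp, shn had 4 damaged-only regions. Schnurri represses brk in cells that receive the signal. Its region at 2R 11202513 to 11203898 had 260 and 298 fragments and that at 2R 11182752 to 11184694 had 338 and 275. Dad, the gene of the inhibitory Smad, also had 4 regions, with folds between 1.70 and 3.33. The target genes salm, salr, bi and brk and the genes magu, sog and Med each had 1 region. The region of brk lay in CG1677 and that of Med in CycG. No damaged-only region was assigned to gbb, sax, put or Mad. Regions with a wild type peak lay at each of these 4 genes, and also at Med (3), Dad (2), dally (2), salm (1) and dlp (1).

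Of the Notch pathway, 6 of 11 genes had a damaged-only region. The receptor gene N had 4, all inside the gene, and no region with a wild type peak. Their folds in damaged replicates 1 and 2 were 1.79 and 2.61, 2.59 and 2.28, 3.51 and 3.20, and 6.66 and 5.97 in order of position. Delta, the gene of one ligand, had 3 regions, the first at 3R 19309376 to 19311114 with folds of 2.80 and 4.40. Ser, the gene of the other ligand, had 1 region of 1.69 and 2.59. The coactivator gene mam had 3, and H, which encodes the antagonist Hairless, and kuz, the gene of a receptor protease, had 1 each. One of the mam regions also overlapped RN-tre, and the kuz region lay over the neighbouring B4. None was assigned to fng, Su(H), neur, mib1 or numb, though regions with a wild type peak lay at neur (2), mib1 (2) and fng (1).

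Of 11 EGFR pathway genes, 4 had damaged-only regions. Egfr itself had 5 and no region with a wild type peak. The strongest, at 2R 21523315 to 21524547, had 219 and 277 fragments and folds of 5.23 and 6.58, while folds of the other 4 lay between 2.13 and 3.18. The gene aop, which encodes a repressor acting downstream of the receptor, had 2 regions. The ligand gene spi and the gene aos, whose product inhibits the receptor, had 1 each. The ligand gene vn, rho, sty and pnt had none, though regions with a wild type peak lay at pnt (3), vn (1) and sty (1).

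**Figure D4:**
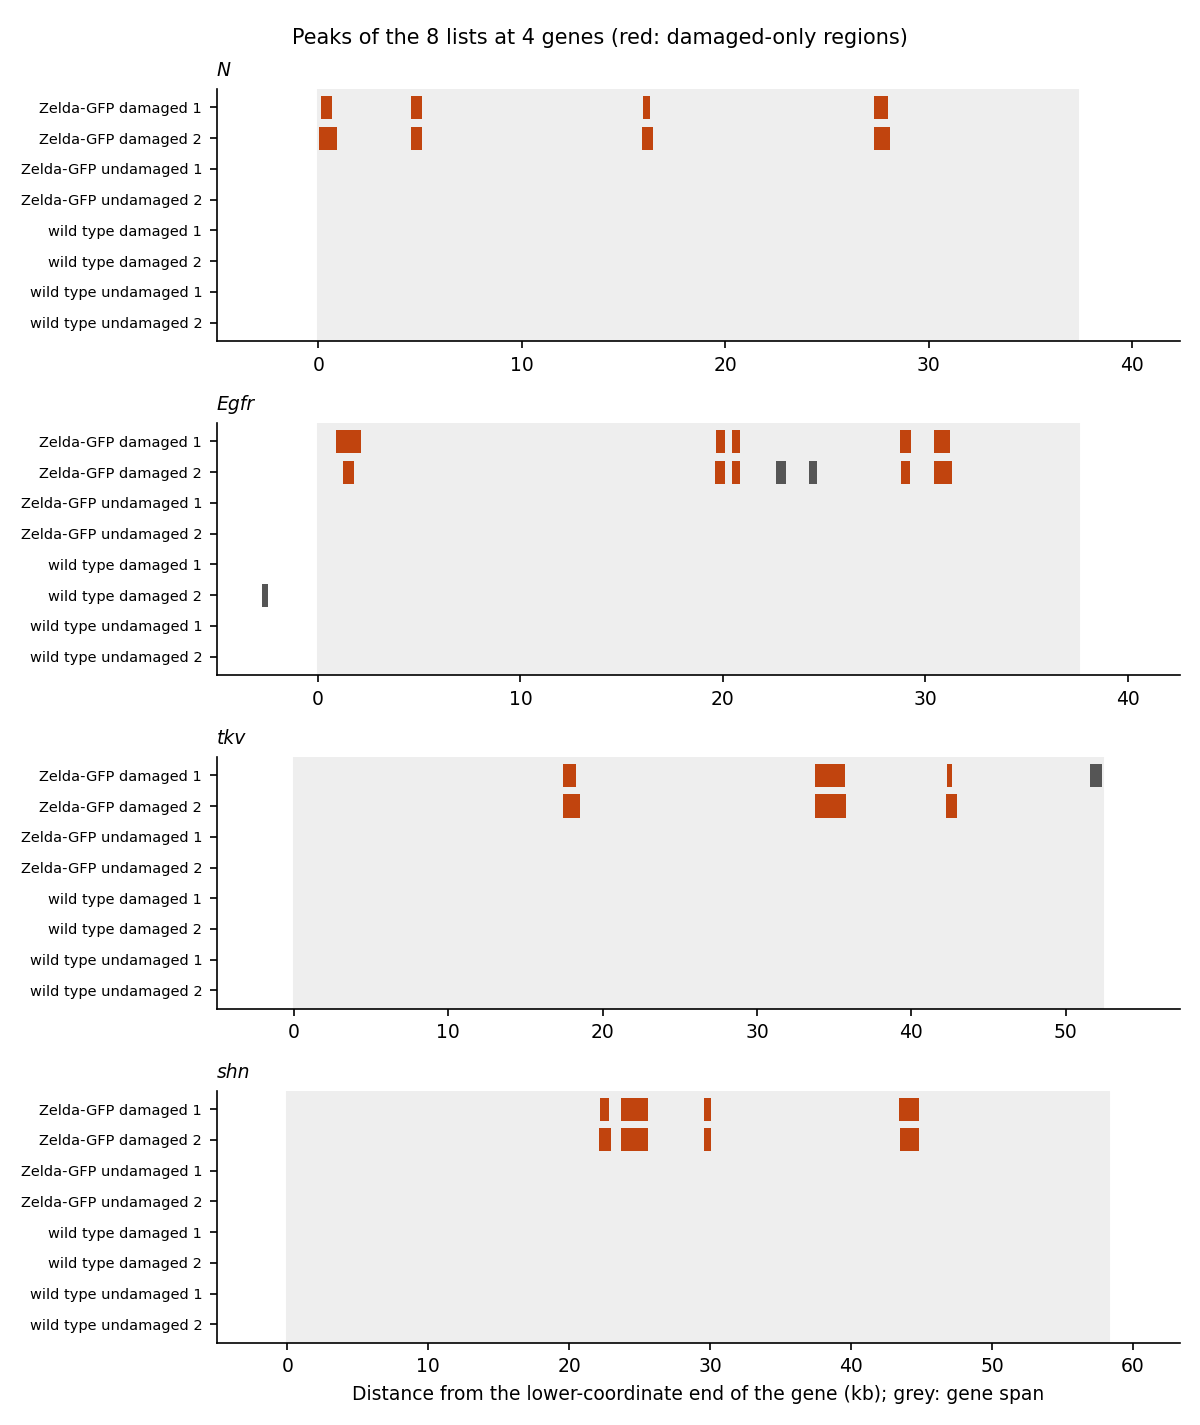
Peaks of the 8 lists (rows, bars drawn to scale) at N, Egfr, tkv and shn against the distance from the lower-coordinate end of the gene in kb. The grey band is the gene span and red bars belong to damaged-only regions. The 4 genes are examples. Not drawn are sbb and jing, which had more damaged-only regions and also 3 regions with a wild type peak each. Each of the 4 genes has its red bars in both damaged Zelda-GFP rows and no peak inside the gene in the undamaged Zelda-GFP rows or the wild type rows.

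Of 14 Wingless pathway genes, 6 had a damaged-only region, and the ligand gene wg had none. At the receptor genes, fz2 had 3 regions and arr, a co-receptor gene, had 2. The fz2 region at 3L 19171479 to 19172889 had folds of 3.25 and 4.54, and the arr region at 2R 13476004 to 13477083 had 4.03 and 5.07. The feedback inhibitor gene nkd had 2 regions, and the one at 3L 19041111 to 19042835 had 344 and 310 fragments. The other 3 were fz, Axn and pan with 1 region each. fz2 was also the only listed gene with a region in all 4 lists, at 3L 19208583 to 19209130. Its folds there were 1.61 and 1.82 in damaged and 1.97 and 1.90 in undamaged discs, so both damaged folds were below both undamaged ones.

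Of 17 selector genes of the pouch, hinge and margin, 10 had a damaged-only region. The hinge gene hth, which encodes a homeodomain partner of Exd, had 6 regions with folds between 2.08 and 3.35. The pouch gene vg and sd, the gene of its DNA-binding partner, had 1 region each. Folds at sd were 3.41 and 5.02, at X 15811814 to 15812435, and that in vg at 2R 12888965 to 12889608 had 2.92 and 3.33. The other 7, with 1 region each, were exd, tsh, zfh2, ct, Bx, ara and caup. None was assigned to ap, nub, rn, Dll, Doc1, mirr or tup. Regions with a wild type peak lay at nub (2), rn (2), Dll (2), mirr (1) and tup (1).

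Of 15 Hippo and Fat pathway genes, 6 had damaged-only regions, and these included the cadherin genes at the top of the pathway. The gene ds had 5 and ft, which encodes its binding partner, had 2. The highest at ds, at 2L 715095 to 715724, lay beyond the end of the gene and had folds of 4.05 and 3.79. The myosin gene dachs, which acts downstream of ft, had 1 region at 2L 8478256 to 8479395 with folds of 3.87 and 4.18. Diap1, the gene of a caspase inhibitor, had 3 regions, one of them in the neighbouring Mbs, ex had 2 and sd, which is also a selector gene, had 1. The kinase genes hpo and wts and the coactivator gene yki had none, and 1 region with a wild type peak lay at each.

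Of the Hedgehog and anterior-posterior list, 4 of 11 genes had a damaged-only region. They were tara with 3 regions and ptc, ci and en with 1 each. The receptor gene ptc had its region beyond the gene, over Acsl, with folds of 2.79 and 2.57. The region at ci, the gene of the pathway's transcription factor, had folds of 3.07 and 3.29. The ligand gene hh had none, and 2 regions with a wild type peak lay there.

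JNK and JAK/STAT signalling act early in the response of a disc to a wound. Of 12 JNK genes, 4 had a damaged-only region, namely the kinase genes hep, bsk and msn with 1 each and puc, the gene of the JNK phosphatase, with 2. Their folds lay between 1.69 and 3.90. None was assigned to the ligand gene egr, its receptor gene grnd, the AP-1 genes Jra and kay, or the damage-induced genes Mmp1, Ets21C and Ilp8. Regions with a wild type peak, which the removal takes out, lay at Jra (2), kay (2), Mmp1 (2) and Ets21C (3). Called as a whole gene, kay did have peaks without wild type overlap in both damaged and neither undamaged list, in separate regions. Of 9 JAK/STAT genes, 3 had a region, namely the receptor gene dome, the transcription factor gene Stat92E and the phosphatase gene Ptp61F. The 3 cytokine genes upd1, upd2 and upd3 and the kinase gene hop had neither a damaged-only region nor a region with a wild type peak.

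Of 14 genes of the ecdysone response and tissue maturation, 6 had a damaged-only region. The hormone receptor gene EcR had 3, of which that at 2R 6148043 to 6148771 had folds of 3.14 and 4.45. Kr-h1, which encodes a repressor induced by juvenile hormone, had 1 of 4.25 and 3.99 at 2L 6087693 to 6088520. br and Eip74EF had 2 each, and ftz-f1 and Hr4 had 1 each. Hr4 was the only listed gene with an undamaged-only region too. The damaged-only region of Hr4 lay at X 1947619 to 1948041, with 2.41 and 2.13 in the damaged lists. The undamaged-only one lay at X 1959855 to 1960420, with 1.73 and 1.78 in the undamaged lists. None was assigned to usp, Eip93F, chinmo, Imp or lin-28, though 2 regions with a wild type peak lay at chinmo.

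Chromatin regulators were split. Of 10 genes of pioneer and architectural factors, zld, Trl, grh and psq had damaged-only regions. The epithelial factor gene grh had 3, with 289 and 326 fragments at 2R 17801050 to 17802504, and the zld region had 202 and 227 fragments. Of 10 SWI/SNF remodeler genes, osa had 3 regions and e(y)3 had 1, whose folds of 2.54 and 6.03 differed widely between the damaged replicates. Of 13 homeotic and Polycomb group genes, 5 had regions. The Hox gene Antp had 5 regions, ph-p had 3, one of them over its tandem paralogue ph-d, and Pc, Psc and trx had 1 each. Reads cannot be assigned with certainty between copies as alike as ph-p and ph-d.

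The bristle, polarity and cell cycle lists had shares of 30%, 20% and 15.4%. These were below the 40.9% over all lists but above the 8.2% of all genes. Of their genes spanning at least 20 kb, 1 of 1, 1 of 6 and 2 of 4 had a damaged-only region. The share of all such genes was 25.1%, so the polarity list was not above genes of like length. Of 10 proneural and bristle genes, ac, ush and emc had a damaged-only region. Of 10 polarity and adhesion genes, shg and scrib had one, both outside the gene body, and that of scrib overlapped plum. Of 13 cell cycle and growth genes, E2f1 and foxo had 3 regions each, and Myc, stg, the cyclin genes and InR had none. Regions with a wild type peak lay at InR (3), CycE (2) and stg (1). Called as a whole gene, InR had peaks without wild type overlap in both damaged and neither undamaged list, in separate regions.

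The 12 genes with the most damaged-only regions spanned from the 37352 bp of N to the 394149 bp of kirre. Dad, which spans 16402 bp, tied with the last of them and was left out because its highest fold was lower. sbb had 9 regions and jing, which encodes a zinc-finger transcription factor, had 8. hth and kirre had 6 each, Egfr, ds, Tet, pyd and Antp 5 each, and N, shn and SKIP 4 each. Regions with a wild type peak lay at kirre (6), Tet (4), sbb, jing, ds, pyd and SKIP (3 each), and hth and Antp (1 each). N, Egfr and shn had none of these. At pyd, an undamaged Zelda-GFP list also had a peak without wild type overlap, in a separate region. In sbb, folds reached 4.83 and 5.24 at 2R 18304351 to 18305558, and in jing 4.47 and 5.44 at 2R 6500746 to 6501926. Tet, the fly member of a family of dioxygenases, had folds of 3.79 and 3.32 at its first region, and pyd, a junction scaffold gene, had 3.04 and 2.85 at its last. kirre, an adhesion gene of the immunoglobulin superfamily, had 2 undamaged-only regions beside its 6 damaged-only ones, and one of the 6 lay inside the neighbouring N. Of the genes assigned a damaged-only region, 1006 had 1, 94 had 2 and 42 had at least 3.

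Undamaged-only regions were few and weak, and none had its mean summit within 500 bp of a gene end. Over the 56 regions the median fold was 1.83 in undamaged replicate 1 and 1.82 in replicate 2. By definition, the damaged lists had no peak there. The highest, at 2R 25262620 to 25263056, had 342 and 232 fragments, and the nearest gene, CG9380, was 7302 bp away. The next, at X 21743424 to 21743840 and at 2R 2336296 to 2337430, lay 113276 and 74181 bp from the nearest gene. Their undamaged folds were 2.16 and 2.13 at the first and 2.10 and 2.28 at the second. Regions in Srg3, at 3L 9443941 to 9444678, and in jus, at 3R 29185903 to 29186398, had folds of 2.14 and 2.06, and of 2.06 and 2.04. The sixth, at X 21595728 to 21596636, had 1.99 and 2.12. One further region, in Pzl at 3R 2958654 to 2959468, had folds of 1.67 and 18.5. It was chosen after its values were seen, because 1653 fragments in undamaged replicate 2 stood against 88 in replicate 1.

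Regions in all 4 Zelda-GFP lists showed similar folds in damaged and undamaged discs. Over the 62 regions the median fold was 2.05 and 2.01 in the damaged and 1.96 and 1.90 in the undamaged lists. The outermost of the 4 summits lay a median of 376 bp apart, and within 100 bp of each other in 21.0% of regions. Folds compared at a region can therefore belong to separate summits. Both damaged folds exceeded both undamaged ones at 16 regions (25.8%) and were below both at 11 (17.7%). Among the 861 regions in all 4 lists that also had a wild type peak, these shares were 15.9% and 21.1%. The median ratio of mean damaged to mean undamaged fold was 1.02 without and 0.984 with a wild type peak. The largest ratio without a wild type peak was 1.54, at X 16274657 to 16276712 across kat80 and the proteasome subunit gene Prosalpha4. Folds there were 2.54 and 3.04 in damaged and 1.72 and 1.90 in undamaged discs, with summits up to 660 bp apart.

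**Figure D5:**
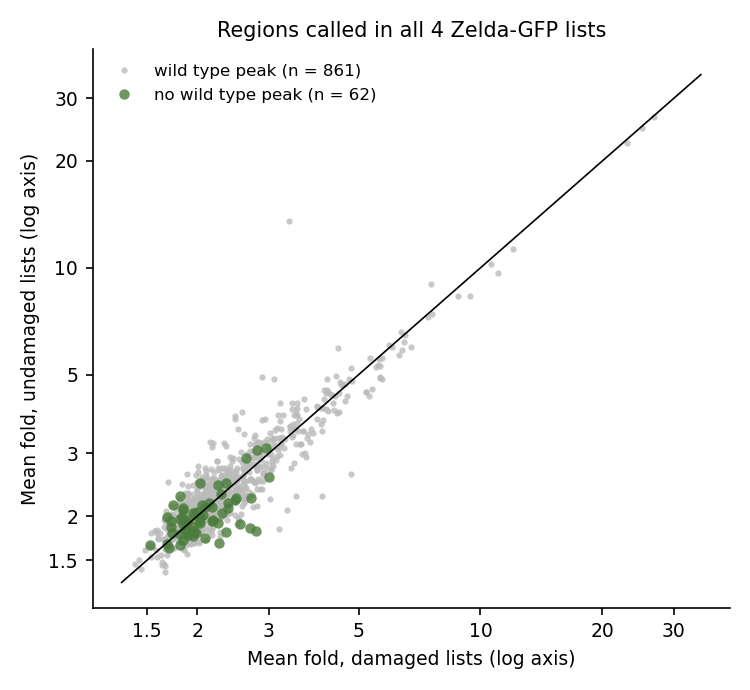
Mean fold in the damaged lists (horizontal, log axis) against the mean fold in the undamaged lists (vertical, log axis) for the regions called in all 4 Zelda-GFP lists. Green points are the 62 regions without and grey points the 861 regions with a wild type peak, and the line marks equal folds. Both groups scatter around the line, with median ratios of damaged to undamaged fold of 1.02 and 0.984.

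The 6 regions with the highest lowest fold in this class were mostly between genes. They began with 3R 15618814 to 15619371, with folds of 2.79 and 3.13 in damaged and 2.81 and 3.43 in undamaged discs. At 3R 15625605 to 15626148 the folds were 2.61 and 2.997 in damaged and 3.08 and 3.05 in undamaged discs. At X 19935001 to 19937277 the order was the opposite, with 2.92 and 3.09 in damaged and 2.50 and 2.66 in undamaged discs. The region at 2R 6352500 to 6354400 had 2.38 and 2.91 in damaged and 2.57 and 3.24 in undamaged discs, and that at 2R 5107663 to 5109678 had 2.40 and 2.31 in damaged and 2.47 and 2.50 in undamaged discs. The sixth, at 3R 29923829 to 29925571 across the protease genes Jon99Cii and Jon99Ci, had 2.33 and 2.25 in damaged and 2.41 and 2.195 in undamaged discs.

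Regions called in 3 of the 4 lists were described in the same way. The missing call sorts these regions, so which side had the higher fold was partly set by the calls and was not tested. At the 83 regions shared with undamaged replicate 1, the median fold was 2.28 and 2.54 in the damaged lists and 1.72 in undamaged replicate 1. Both damaged folds exceeded the undamaged one at 70 of these regions. At the 7 regions shared with undamaged replicate 2, medians were 2.08 and 2.09 in the damaged lists and 1.90 in that replicate, and both damaged folds were higher at 2. Regions called in both undamaged lists and 1 damaged list had the lower median fold in the damaged list. The 20 shared with damaged replicate 1 had a median fold of 1.79 in that list and 1.98 in each undamaged list, and the damaged fold was above both at 4. The 17 shared with damaged replicate 2 had 1.77 in that list and 1.93 in each undamaged list, and the damaged fold was above both at 3.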

How the data were processed

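Per the submitters' processing notes, the reads were handled with bcl2fastq 2.20, Bowtie2, SAMtools, Picard, deepTools and MACS2 on the build dm6, with no order or settings given. The authors deposited 1 narrowPeak list per library, called per library; whether a control entered the calling is not given in the sources used here. The deposited fold is the ratio of summit pileup to local expected coverage, and the deposited −log10 p-value and −log10 q-value come from the caller. The deposited score is 10 times the −log10 q-value without decimals and served as a layout check.

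Peaks on the arms 2L, 2R, 3L, 3R, 4 and X were merged at a minimum overlap of 1 bp with Python 3.11.15, pandas 2.3.3 and SciPy 1.17.1, tested on simulated data. Summit pileup and expected coverage were recovered from fold and p-value, with 99.9% to 100.0% of pileups within 0.02 of a whole number in every list; the lowest expected coverage is the background coverage. Read totals were not used, so no counting intervals are given. Genes came from a RefSeq table of Release 6, the same assembly as dm6, without strand, so either gene end was used. Sequence was not analysed here, so the planned share of peaks with a Zelda motif was not run. Libraries were compared with exact permutation tests over 2 against 2 libraries, 3 tests in all.

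The classes, gene lists and tests were chosen with earlier results of these data known. Genes and regions were named by rules, apart from neighbouring or overlapping genes and those said to be chosen on their values: the 12, 6 and 6 regions of highest lower fold in each class, the 12 genes with most damaged-only regions, and the listed genes. Of 194 listed genes 193 were found among protein-coding genes. Replicate numbers were not treated as pairs in the main tests. The difference in calls between replicates 1 and 2 had a correlation of 0.0255 over regions between damaged and undamaged discs. That value cannot show whether libraries of the same number were prepared together.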

Additional observations from a re-analysis of the deposited data

How the results depend on the processing

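The damaged-only count stayed within 1.5 times 965 with a −log10 q-value of at least 5 (887), a fold of at least 2 (829), windows of 100 bp around the summits (801), an overlap of at least 100 bp (972) and no control removal (1242), and was 616 with lists of equal length. The undamaged-only count was 26 with a fold of at least 2, 147 without control removal and 143 with lists of equal length. The count in all 4 lists was 34 with the −log10 q-value of at least 5, 26 with the fold of at least 2, 29 with the summit windows, 923 without control removal and 15 with lists of equal length. Leaving out a library loosens the criteria, and the counts then ranged from 966 to 1664 for damaged-only, 58 to 595 for undamaged-only and 67 to 145 for all 4 lists. Dropping damaged replicate 1 or 2 gave 1664 and 1458 damaged-only regions. Dropping undamaged replicate 1 or 2 gave 120 and 595 undamaged-only regions, and the count in all 4 lists was 145 without undamaged replicate 2.

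The damaged minus undamaged differences kept their direction under every alternative run. Leaving out a Zelda-GFP library gave 858 to 2068 peaks, 16.4 to 33.6 percentage points near gene ends and 0.326 to 0.531 in median fold. With lists of equal length the difference in median fold was 0.865, and without control removal 0.172. With the replicate number as a block the differences were the same 1463 peaks, 24.96 points and 0.428, with an exact sign-flip p of 0.5, the smallest that 2 pairs allow. The Dpp list had 10 to 15 genes with a damaged-only region over the alternatives. Of the 85 named genes, 18 had no damaged-only region with lists of equal length and 16 with the summit windows, and all 12 leading damaged-only regions kept their class with equal lists and 10 with the summit windows, where 2 of the 6 leading regions in all 4 lists kept theirs. The gene-body and long-gene counts were chosen after the data were seen. The lists of peaks give no read totals, so the part of depth in the calls was not tested, and a region missing from a list is one that was not called there.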
